A study of Homo sapiens with 10 samples.

Results

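The transcription factor NRF2, the genes that hold it back and the partners it binds DNA with were followed in HaCaT cells, an immortalised human keratinocyte line, after pretreatment with LBP and after ionising radiation. LBP, per the series title, is polysaccharide-glycoprotein of Lycium barbarum, the goji berry plant. The genes were chosen by symbol: NFE2L2, NFE2L1, BACH1, KEAP1, CUL3, MAFF, MAFG, MAFK, SQSTM1 and OSGIN1. All 10 were found among the 22003 features of the count and FPKM tables, and all 10 passed the filter on low counts that left 14799 features for testing. Libraries came from 4 groups of wild-type HaCaT cells: LBP and then 12 Gy (irradiated LBP, n = 3), vehicle and then 12 Gy (irradiated vehicle, n = 3), LBP without irradiation (LBP, n = 2) and vehicle without irradiation (vehicle, n = 2). Pretreatment lasted 24 h, and RNA was taken 3 h after irradiation. For the non-irradiated cells no harvest time is given, so any difference in time since pretreatment cannot be told apart from 12 Gy. No source used here gives the dose of LBP. Libraries of a group carry repeat numbers in their labels, without a statement that each had its own culture, so p-values here rest on the spread between libraries alone, which may be technical.

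NRF2, encoded by NFE2L2, is made continuously and destroyed continuously: KEAP1 holds it on a ubiquitin ligase built on the scaffold protein CUL3, and electrophiles or oxidants that modify KEAP1 let NRF2 escape to the nucleus. There it pairs with a small MAF protein (MAFF, MAFG or MAFK), which lacks an activation domain of its own, and binds antioxidant response elements near genes of detoxification and glutathione, iron and NADPH metabolism. BACH1, a haem-binding repressor, competes for the same elements with the same partners. SQSTM1 encodes p62, an autophagy receptor that can draw KEAP1 into autophagosomes, and OSGIN1 encodes an oxidative stress-induced growth inhibitor. NFE2L1 encodes NRF1, a relative of NRF2 that is anchored in the endoplasmic reticulum and known for raising proteasome genes when proteasomes fail. Much of this control acts on protein, which transcript counts do not measure, and in bulk RNA more expressing cells and more RNA per cell cannot be told apart.

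Total counts ran from 31830506 to 62986831 per library, and the members had from 582 counts (OSGIN1) to 35165 counts (SQSTM1) in a library. Libraries of the same group differed by more than counting noise (chi-square over its degrees of freedom, 10.7 to 36.8). All 10 keratinocyte markers were above 1 FPKM in every library, with KRT5 and KRT14 from 1070 to 2110 FPKM. The source is labelled as mucosa. Of 7 markers of mucosal or simple epithelium 5 exceeded 1 FPKM in every library, KRT8 among them, at 1270 to 1810 FPKM. Of the mucosal keratins in this list, KRT13 lay between 27.5 and 56 FPKM and KRT4 between 0.781 and 1.72 FPKM. The summed markers of other cell types were low: 1.02 to 1.5 FPKM for fibroblasts, 0.317 to 0.884 FPKM for endothelium (PECAM1 and TEK listed at 0, CDH5 at 0.26 to 0.792 FPKM), 1.41 to 1.94 FPKM for melanocytes (TYR listed at 0, MLANA at most 0.0674 FPKM, MITF at 1.01 to 1.65 FPKM) and 0.56 to 1.1 FPKM for leukocytes (PTPRC at most 0.0103 FPKM, CD14 at 0.372 to 0.893 FPKM). The 7 mucosal or simple epithelial markers summed to 2690 to 3100 FPKM in irradiated LBP against 3140 to 3630 FPKM in irradiated vehicle libraries, and the 5 melanocyte markers to 1.45 to 1.5 FPKM against 1.69 to 1.94 FPKM. Both sums were thus lower with LBP after irradiation. Without irradiation the keratinocyte markers summed to 5230 to 5520 FPKM in LBP against 4690 to 4960 FPKM in vehicle libraries, the melanocyte markers to 1.41 to 1.5 FPKM against 1.63 to 1.66 FPKM and the leukocyte markers to 0.643 to 0.879 FPKM against 0.987 to 1.01 FPKM. The part of these sums in the results was not tested.

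The promoter of OSGIN1 is shown because this gene had the largest fold change of the 10 and because its promoter holds matches to the element that NRF2 and small MAF proteins are known to bind. The bases are the 250 before the RefSeq start site on GRCh38.p14, on the plus strand at chr16:83952990-83953239, with matches to the loose antioxidant response element TGANNNNGC in capitals.
OSGIN1: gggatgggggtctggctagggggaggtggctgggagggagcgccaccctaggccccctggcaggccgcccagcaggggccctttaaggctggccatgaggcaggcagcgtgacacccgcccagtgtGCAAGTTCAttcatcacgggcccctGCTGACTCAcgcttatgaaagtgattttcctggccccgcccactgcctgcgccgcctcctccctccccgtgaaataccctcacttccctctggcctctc
Both matches lie on the minus strand, so they read TGAACTTGC at -124 and TGAGTCAGC at -99 from the start site when the other strand is followed 5′ to 3′. TGAGTCAGC also contains TGAGTCA, the letters bound by AP-1. It was searched for after the match in OSGIN1 had been seen, and it occurs on either strand in 0.376% of 35116 promoter windows of the same length. The core element TGACNNNGC occurs in 10.9% of these windows and the loose element, which includes it, in 35.2%.

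Among the 18 promoter windows listed for 9 of the genes, the core element was found in 2, belonging to KEAP1 and MAFF, and the loose element in 7, belonging to 7 genes. The windows around the core matches are shown because no other listed window of these genes held a core match, with the match in capitals, each on the strand of its gene. The KEAP1 stretches lie on the minus strand at chr19:10502807-10502835 and chr19:10502784-10502812 and carry the core at -54 on the gene's strand and at -31 on the opposite strand. The MAFF stretch lies on the plus strand at chr22:38201862-38201890 and carries it at -122 on the opposite strand.
KEAP1 at -54: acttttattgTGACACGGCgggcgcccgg
KEAP1 at -31: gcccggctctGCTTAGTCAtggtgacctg
MAFF at -122: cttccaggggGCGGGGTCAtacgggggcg
A match describes letters in these windows and was not tested for binding. MAFK had no window in the table.

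Per unit of transcript length, SQSTM1 was the most abundant of the 10 in every library, from 137 to 249 FPKM, and BACH1 the least abundant in every library, from 3.57 to 6.12 FPKM (FPKM are the authors' values, scaled for transcript length and library depth). NFE2L1 and NFE2L2 came next after SQSTM1, at 62.5 ± 5.2 and 47.8 ± 3.1 FPKM in irradiated LBP cells (SD, n = 3) and at 48.4 ± 3.8 and 45.3 ± 1.9 FPKM in vehicle cells (SD, n = 2). Their libraries overlapped in the vehicle group and were separate in the other 3 groups, with NFE2L1 higher in each of those. KEAP1, at 25.8 to 33.5 FPKM, and MAFK, at 19.8 to 35.0 FPKM, were neighbours with overlapping libraries in the irradiated LBP, irradiated vehicle and vehicle groups. OSGIN1 moved through this order: it lay at 30.1 ± 5.0 FPKM in irradiated LBP cells and 30.8 ± 2.6 FPKM in LBP cells, within the range of KEAP1 and MAFK, against 8.77 ± 0.51 FPKM in irradiated vehicle cells and 7.86 ± 1.1 FPKM in vehicle cells, below MAFG and above BACH1. MAFF, at 10.3 to 30.2 FPKM, CUL3, at 9.23 to 13.6 FPKM, and MAFG, at 8.70 to 14.6 FPKM, held the lower part of the order.

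**Figure D1:**
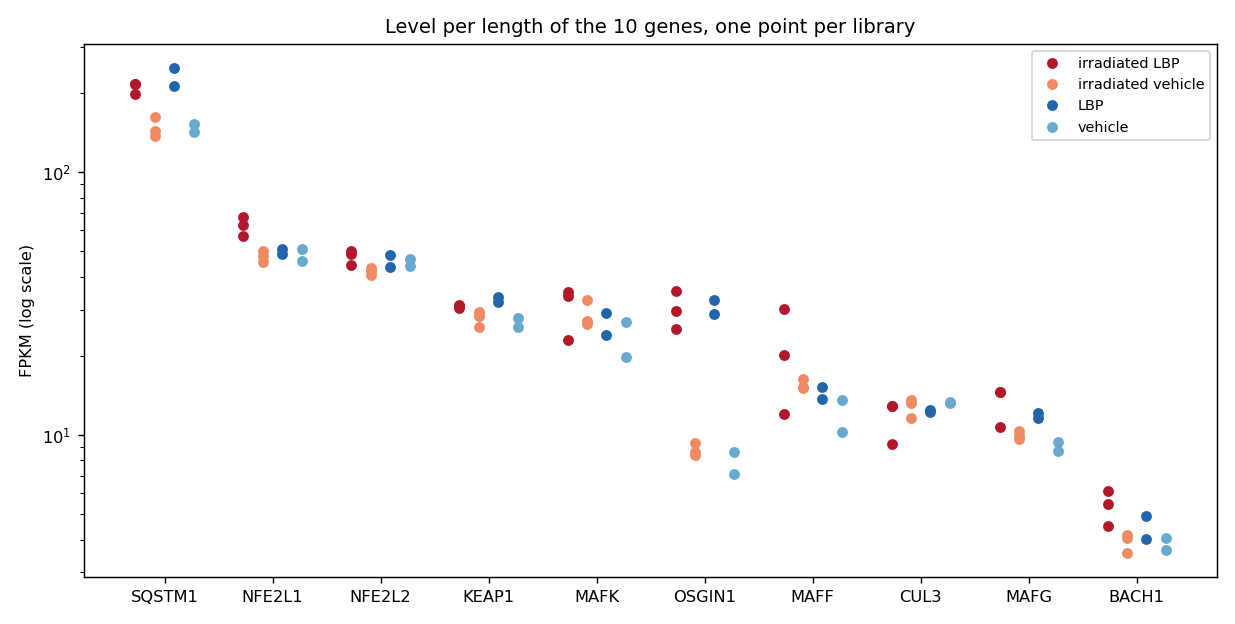
FPKM of the 10 genes on a log axis, with 1 point per library and the 4 groups in colour, ordered by the median over the 10 libraries. SQSTM1 is highest and BACH1 lowest in every library, and OSGIN1 is near 30 FPKM in both groups given LBP and near 8 FPKM in both groups given vehicle.

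LBP pretreatment before irradiation was examined by comparing irradiated LBP with irradiated vehicle cells (n = 3 against 3). OSGIN1, SQSTM1 and NFE2L1 rose, and none of the 10 fell, by edgeR's quasi-likelihood test with Benjamini-Hochberg adjustment over all features and calls at an adjusted p under 0.05. Over all features 4.36% were called, 2.79% higher and 1.57% lower. The median log2 fold change of the 10 genes was 0.40, against 0.01 over all features. In 6 of the 10 every irradiated LBP library lay above every irradiated vehicle library, which held for 13.9% of all features. An unadjusted p under 0.05 was reached by 7 of the 10, against 21.7% of all features.

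OSGIN1 had the largest change of the 10. Its level in CPM (counts scaled to library depth and by the trimmed mean of M values) was 78.9, 53.3 and 65.0 in the irradiated LBP libraries, against 17.8, 18.8 and 20.2 in the irradiated vehicle libraries. The lowest library with LBP thus lay well above the highest without it. The log2 fold change was 1.80 ± 0.13 (standard error, SE), or 3.47-fold, with an adjusted p of 1.78e-05. OSGIN1 (ENSG00000140961.12) codes for protein and spans 83948282 to 83966332 of chromosome 16, plus strand, in GENCODE v29 on GRCh38. Its exons share 481 bases with AC009119.2 on the same strand, a gene that the tables do not list.

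SQSTM1, the p62 gene, had 714, 612 and 694 CPM in the irradiated LBP libraries, against 441, 439 and 507 CPM in the irradiated vehicle libraries. The groups did not overlap, and the change was 0.54 ± 0.09 on the log2 scale (1.46-fold, adjusted p = 0.00723). SQSTM1 (ENSG00000161011.19, protein coding) spans 179806398 to 179838078 of chromosome 5, plus strand. Its exons share 1582 bases with MRNIP on the opposite strand, and no source used here says whether counting used the strand. MRNIP averaged 3.44 FPKM in irradiated LBP and 2.98 FPKM in irradiated vehicle cells, far below the 210 and 147 FPKM of SQSTM1. Exons of SQSTM1 also share 105 bases with MGAT4B on the opposite strand. MGAT4B averaged 48.2 FPKM in irradiated LBP and 44.6 FPKM in irradiated vehicle cells.

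NFE2L1, the NRF1 gene, had 314, 325 and 363 CPM with LBP and irradiation, against 251, 245 and 266 CPM with vehicle and irradiation. All irradiated LBP libraries were higher, and the log2 fold change was 0.39 ± 0.07 (1.31-fold, adjusted p = 0.0132). The call was lost in 3 of 21 alternative settings, among them without irradiated vehicle replicate 1 (0.38, adjusted p = 0.0617) and without irradiated vehicle replicate 2 (0.36, adjusted p = 0.0723). NFE2L1 (ENSG00000082641.15, protein coding) spans 48048329 to 48061487 of chromosome 17, plus strand.

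NFE2L2, the NRF2 gene itself, had 140, 119 and 141 CPM in the irradiated LBP libraries, against 117, 118 and 112 CPM in the irradiated vehicle libraries. The groups did not overlap, but the lowest LBP library lay only just above the highest vehicle library. The log2 fold change of 0.20 ± 0.07 (1.15-fold) had an adjusted p of 0.137 and a 95% interval from 0.04 to 0.36. NFE2L2 (ENSG00000116044.15, protein coding) spans 177227595 to 177392697 of chromosome 2, minus strand, and shares 1054 exonic bases with AC019080.1 on that strand, which the tables do not list.

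Of the brakes on NRF2, BACH1 came closest to the threshold. The repressor had 35.2, 27.9 and 39.0 CPM in the irradiated LBP libraries, against 25.9, 26.0 and 22.8 CPM in the irradiated vehicle libraries, with no overlap. Its log2 fold change was 0.45 ± 0.12 (adjusted p = 0.0514), and it passed in 5 of 21 alternative settings. KEAP1, the adaptor that marks NRF2 for destruction, had 93.0, 88.2 and 90.2 CPM, against 81.5, 76.7 and 85.7 CPM, again without overlap. The difference of 0.15 ± 0.06 did not pass (adjusted p = 0.189). CUL3, the scaffold, had 101, 95.8 and 70.9 CPM with LBP and 101, 103 and 88.9 CPM with vehicle. These groups overlapped, with the third irradiated LBP library lowest, and the value was -0.13 ± 0.11 (adjusted p = 0.539).

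Of the small MAF genes, MAFF had 55.7, 31.7 and 82.7 CPM in the irradiated LBP libraries, against 40.0, 41.5 and 44.3 CPM in the irradiated vehicle libraries. The second irradiated LBP library lay below all the irradiated vehicle libraries and the other two above them, a coefficient of variation of 45% within the irradiated LBP group, and the log2 difference was 0.44 ± 0.24 (adjusted p = 0.318). MAFG had 84.1, 57.9 and 81.9 CPM, against 55.4, 55.1 and 58.5 CPM, so that only the second irradiated LBP library fell within the range of the vehicle group (0.41 ± 0.12, adjusted p = 0.0678), and MAFG passed in 4 of 21 alternative settings. MAFK had 133, 85.6 and 136 CPM, against 98.9, 105 and 125 CPM, with the same library lowest (0.11 ± 0.17, adjusted p = 0.744). Exons of MAFK share 809 bases with TMEM184A on the opposite strand (2.71 FPKM in irradiated LBP and 2.07 FPKM in irradiated vehicle cells). Those of MAFG share 105 bases with SIRT7 on the same strand. SIRT7 averaged 15 FPKM in irradiated LBP and 14.4 FPKM in irradiated vehicle cells, above the 13.3 and 9.98 FPKM of MAFG.

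The 3 calls above were kept without the second irradiated LBP library, the shallowest of the series, but whether other members passed depended on that library. By CPM it was the lowest of its group for NFE2L2, BACH1, KEAP1, MAFF, MAFG, MAFK, SQSTM1 and OSGIN1. By FPKM it was instead the highest of its group for KEAP1 (31.1, against 30.9 and 30.3 FPKM). Without it, 7 of the 10 genes rose rather than 3: NFE2L2 (0.28, adjusted p = 0.0439), BACH1 (0.58, adjusted p = 0.0111), MAFF (0.72, adjusted p = 0.024) and MAFG (0.56, adjusted p = 0.00171) were called in addition, while KEAP1, CUL3 and MAFK were not, by the same edgeR test. Features called over the whole table numbered 645 with all libraries and 722 without this one, against 195, 176 and 223 without irradiated vehicle replicate 1, 2 or 3 and 393 and 420 without irradiated LBP replicate 1 or 3. Its depth was 31830506 counts, against 43814878 and 47950059 in the other two libraries of the group, and the part of depth in these values was not tested. Leaving out the lowest library of the higher group raises a fold change in any gene, so the added calls are no separate evidence.

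**Figure D2:**
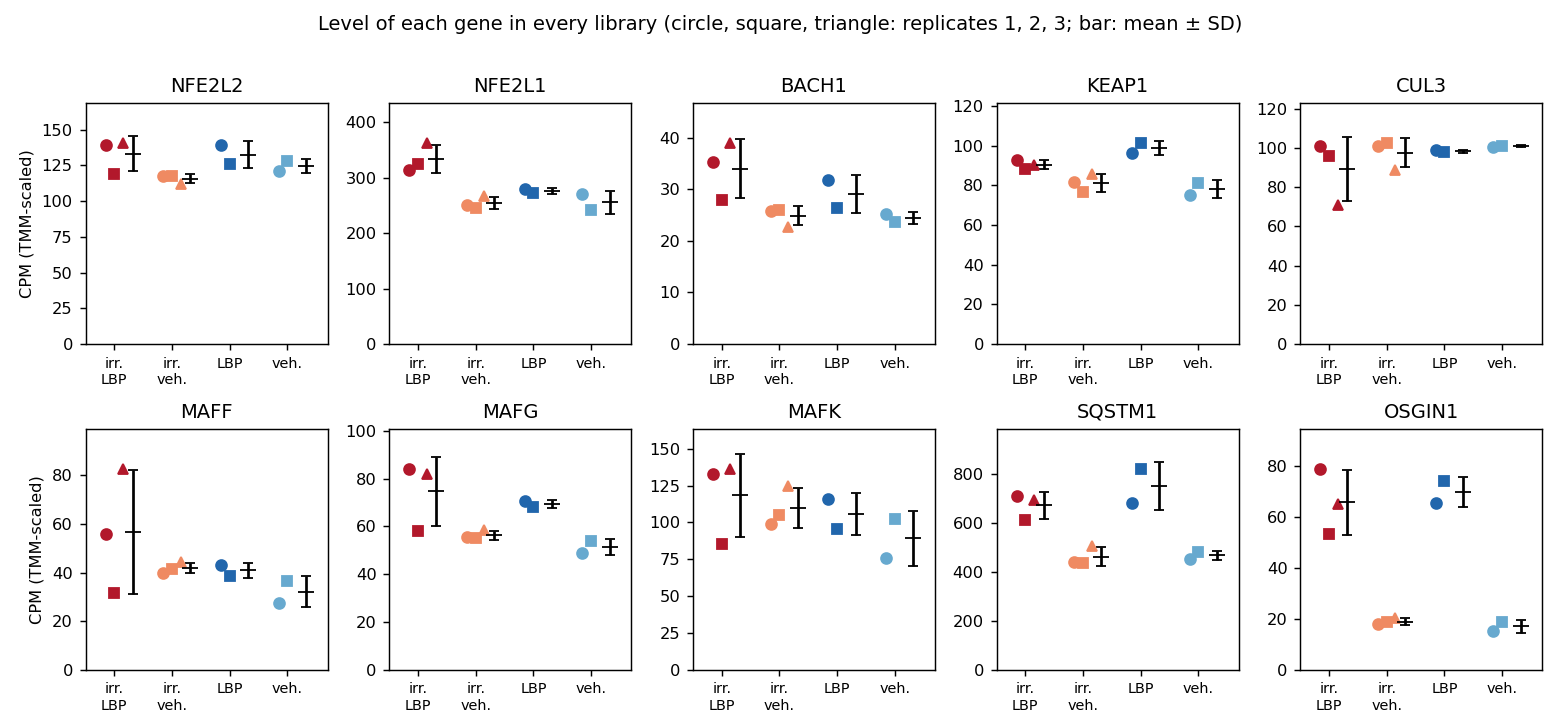
TMM-scaled CPM of each gene in every library, with the axis starting at 0, symbols for the replicate numbers and a bar for the mean ± SD of each group (irr., irradiated; veh., vehicle). OSGIN1 and SQSTM1 are higher in both LBP groups than in their vehicle groups, and the second irradiated LBP library (square) is the low one for all 3 small MAF genes.

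The effect of LBP without irradiation was measured in LBP and vehicle cells (n = 2 against 2). Its group means come from libraries outside the previous comparison, but the estimate of the spread was shared by all 10 libraries. The p-values are thus not independent of the previous ones. OSGIN1 and SQSTM1 rose, and no member fell, where 0.804% of all features were called, 0.541% higher and 0.264% lower. OSGIN1 had 65.5 and 74.0 CPM in LBP cells, against 15.3 and 18.7 CPM in vehicle cells, a log2 fold change of 2.03 ± 0.16 (4.09-fold, adjusted p = 4.81e-05). SQSTM1 had 684 and 823 CPM in LBP cells, against 455 and 483 CPM in vehicle cells, a change of 0.68 ± 0.11 (1.61-fold, adjusted p = 0.0126). For both genes the groups were well apart. The call of SQSTM1 was lost in 5 of 21 alternative settings, among them without vehicle replicate 1 (0.63, adjusted p = 0.173), without vehicle replicate 2 (0.73, adjusted p = 0.0816) and without LBP replicate 2 (0.54, adjusted p = 0.118), while that of OSGIN1 was kept in all 21.

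The brakes and partners had mostly positive values in non-irradiated cells that did not pass. KEAP1 had 96.5 and 101 CPM in LBP cells, against 75.0 and 81.2 CPM in vehicle cells (0.34 ± 0.08, adjusted p = 0.0824), and DESeq2 called it (adjusted p = 0.0087). Over the whole table DESeq2 called 381 features in this comparison, against 119 by edgeR. MAFG had 70.6 and 68.2 CPM, against 48.9 and 53.8 CPM (0.43 ± 0.14, adjusted p = 0.211), and it passed in 2 of 21 alternative settings. The groups were separate for both genes. BACH1 stood at 0.25 ± 0.14, MAFF at 0.34 ± 0.30 and MAFK at 0.24 ± 0.21. NFE2L2 itself had 139 and 126 CPM in LBP cells, against 121 and 128 CPM in vehicle cells, which overlap (0.09 ± 0.09, 95% interval from -0.11 to 0.29), and NFE2L1 stood at 0.11 ± 0.09 and CUL3 at -0.04 ± 0.13. In all, 9 of the 10 values were positive and 4 had an unadjusted p under 0.05, against 13.5% of all features. In 7 genes the LBP libraries lay above the vehicle libraries, against 23.2% of all features, and in CUL3 below them, against 22.3%.

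**Figure D3:**
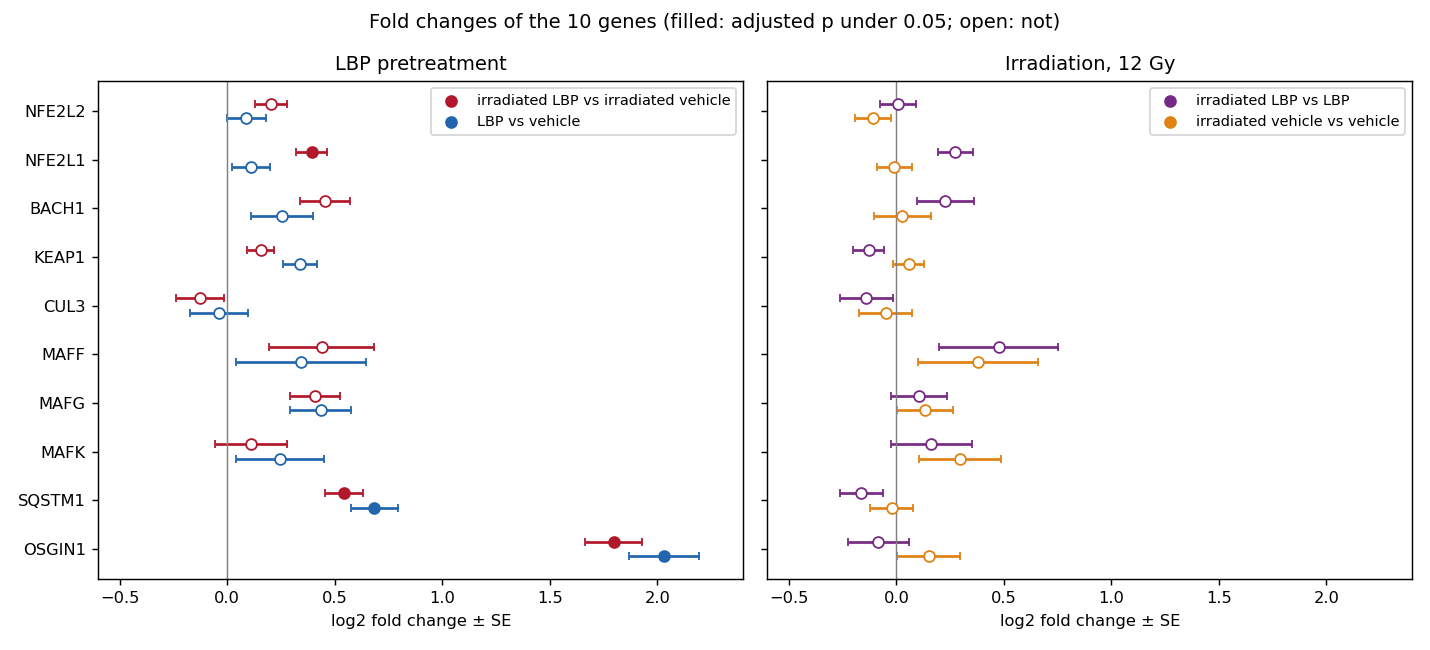
Log2 fold changes ± SE of the 10 genes with LBP (left) and with irradiation (right), filled where the adjusted p was under 0.05. The filled points are OSGIN1 and SQSTM1 for LBP in irradiated and in non-irradiated cells and NFE2L1 for LBP in irradiated cells, and all points for irradiation are open.

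Whether the effect of LBP depended on irradiation was tested as an interaction: the log2 fold change with LBP after 12 Gy less the one without it. No member passed by edgeR or by DESeq2, where edgeR called 0.0135% of all features, 0.00676% in each direction, and 1 of the 10 had an unadjusted p under 0.05, against 8.2% of all features. That gene was NFE2L1, with LBP effects of 0.39 and 0.11 and a difference of 0.28 ± 0.11 (unadjusted p = 0.028, adjusted p = 0.596). The difference was -0.23 ± 0.20 for OSGIN1, with a 95% interval from -0.68 to 0.21, and -0.14 ± 0.14 for SQSTM1, with an interval from -0.45 to 0.17. An LBP effect on OSGIN1 in irradiated cells up to 0.68 smaller or 0.21 larger on the log2 scale is therefore within the error. KEAP1 had a difference of -0.18 ± 0.10 and NFE2L2 of 0.12 ± 0.12.

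The response to 12 Gy was examined in vehicle cells (irradiated vehicle against vehicle, n = 3 against 2) and in LBP cells (irradiated LBP against LBP, n = 3 against 2). No member passed in either comparison by edgeR. Over all features, 0.439% were called in vehicle cells, 0.0338% higher and 0.405% lower, and 0.142% in LBP cells, 0.0135% higher and 0.128% lower. In vehicle cells 0 members had an unadjusted p under 0.05, against 6.91% of all features, and DESeq2 called none. In LBP cells 1 did, NFE2L1, against 13.5% of all features, and DESeq2 called it (0.28, adjusted p = 0.049) where edgeR gave 0.27 ± 0.08 (adjusted p = 0.245). Over the whole table DESeq2 called 193 features in this comparison, against 21 by edgeR. In LBP cells the irradiated libraries were all higher for NFE2L1 and all lower for KEAP1, patterns that 14% and 14% of all features had. These comparisons share libraries with those of LBP, so their values are not independent of the ones above.

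In irradiated vehicle against vehicle cells, NFE2L2 had a value of -0.11 ± 0.08, with a 95% interval from -0.29 to 0.07, NFE2L1 of -0.01 ± 0.08, BACH1 of 0.03 ± 0.13, KEAP1 of 0.06 ± 0.07 and CUL3 of -0.05 ± 0.12. SQSTM1 stood at -0.02 ± 0.10 and OSGIN1 at 0.15 ± 0.15, with an interval from -0.17 to 0.47, so a rise of OSGIN1 of the size seen with LBP lay far outside it. The widest intervals belonged to MAFF and MAFK. MAFF, known as an early response gene, had 40.0, 41.5 and 44.3 CPM in irradiated vehicle libraries, against 27.6 and 36.7 CPM in vehicle libraries. The groups did not overlap for MAFF or for MAFG, with the irradiated libraries higher, nor for NFE2L2, with the irradiated libraries lower, where 13.8% of all features were separate and higher and 13.9% separate and lower. The value for MAFF was 0.38 ± 0.28 (adjusted p = 0.856, interval from -0.22 to 0.98). MAFK stood at 0.30 ± 0.19 and MAFG at 0.13 ± 0.13. In irradiated LBP against LBP cells the corresponding values were 0.48 ± 0.28 for MAFF, 0.16 ± 0.19 for MAFK, 0.11 ± 0.13 for MAFG, -0.16 ± 0.10 for SQSTM1 and -0.08 ± 0.14 for OSGIN1.

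The small MAF genes can be set side by side per length, because each of their proteins can pair with NRF2, NRF1 and BACH1. MAFK made up the largest part of their summed FPKM in every library: 47.8 ± 3.4% in irradiated LBP, 52.8 ± 1.9% in irradiated vehicle (SD, n = 3 each), 50.1 ± 2.1% in LBP and 52.4 ± 2.0% in vehicle cells (SD, n = 2 each). MAFG made up 21.0 ± 2.7%, 18.5 ± 0.95%, 22.4 ± 1.5% and 20.7 ± 2.5% in the same order of groups. The summed level was 68.5, 45.6 and 79.7 FPKM in the irradiated LBP libraries, 51.4, 51.9 and 59.2 FPKM in the irradiated vehicle libraries, 56.6 and 49.3 FPKM in the LBP libraries and 38.8 and 49.9 FPKM in the vehicle libraries. Each LBP group thus overlapped its vehicle group. In the third irradiated LBP library MAFF made up 37.9% of the sum, against 26.2 to 29.3% in the other 9 libraries.

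**Figure D4:**
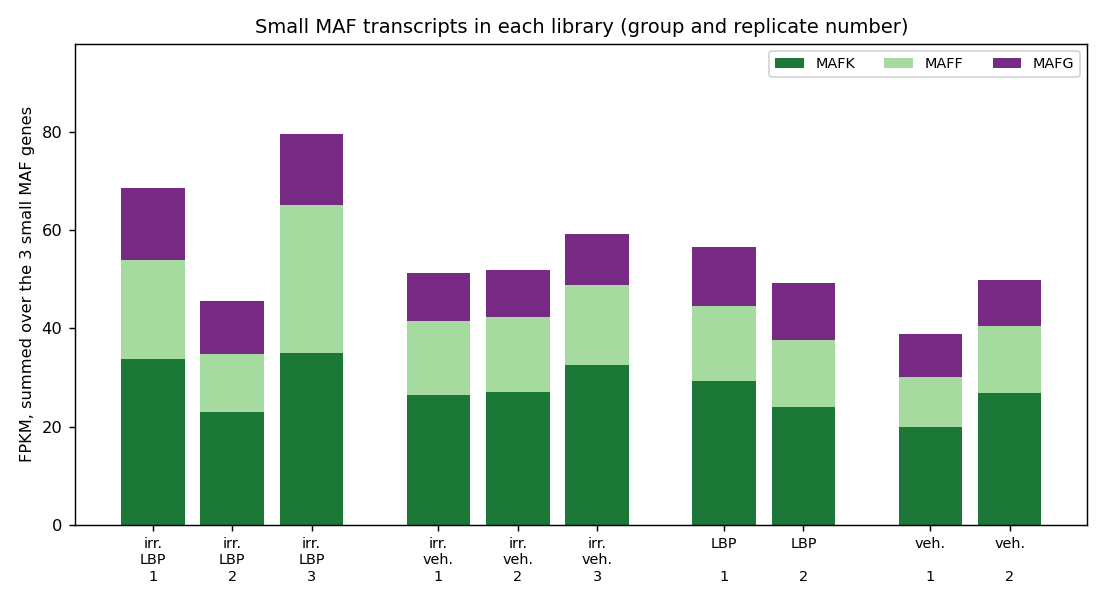
FPKM of MAFK, MAFF and MAFG stacked for each library, grouped by treatment, with the replicate number under each bar. The sum ranges from 38.8 FPKM in vehicle replicate 1 to 79.7 FPKM in irradiated LBP replicate 3, and MAFK is the largest share throughout.

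Ratios within a library show how activator and brakes stood to each other. NFE2L2 per BACH1 was 8.93, 9.80 and 8.21 in the irradiated LBP libraries, against 10.4, 10.4 and 11.4 in the irradiated vehicle libraries. In non-irradiated cells it was 9.84 and 10.9 in LBP libraries, against 10.8 and 12.7 in vehicle libraries. The ratio was thus lower with LBP in irradiated cells, without overlap, while the non-irradiated groups overlapped. NFE2L2 per KEAP1 was 1.58, 1.43 and 1.66 in irradiated LBP, against 1.52, 1.63 and 1.38 in irradiated vehicle libraries. In non-irradiated cells it was 1.52 and 1.30 with LBP, against 1.70 and 1.67 with vehicle. That ratio thus overlapped between the irradiated groups and was lower with LBP, without overlap, in non-irradiated cells. SQSTM1 per KEAP1 was 6.99, 6.35 and 7.15 in irradiated LBP against 5.02, 5.31 and 5.48 in irradiated vehicle libraries, and 6.65 and 7.42 in LBP against 5.51 and 5.48 in vehicle libraries, so both LBP groups were separate from their vehicle groups. These ratios are descriptions of transcript levels and carry no test. Of single features, 27.5% had separate LBP and vehicle groups in irradiated cells, in either direction, and 45.5% in non-irradiated cells. No such share was taken for ratios.

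Genes that NRF2 is known to drive were counted from a list of 34, all of them tested and none of them among the 10. Being left off this list does not mean that a member is not itself a target of NRF2. This list and those of other regulators and proteasome genes below were chosen with earlier results of these data known. Counts from them are a description. With LBP in irradiated cells 26 of the 34 rose, against 2.79% of all features, and none fell, with a median log2 fold change of 0.66. In non-irradiated cells 22 rose, against 0.541% of all features, and none fell, with a median of 0.63. Without vehicle replicate 1 or 2, which leaves 1 vehicle library, fewer of the 34 passed in non-irradiated cells, as did fewer of all features. The medians were then 0.66 and 0.65. HMOX1, haem oxygenase, had the smallest p in both, with 92.3 ± 19 CPM in irradiated LBP and 4.87 ± 1.1 CPM in irradiated vehicle cells (SD, n = 3 each), and 115 ± 17 CPM in LBP and 4.20 ± 0.91 CPM in vehicle cells (SD, n = 2 each). Next came AKR1C2, AKR1C1 and AKR1C3, which encode aldo-keto reductases, with log2 fold changes of 2.42, 2.37 and 2.05 in irradiated and 2.50, 2.47 and 2.18 in non-irradiated cells. Their sequences are near-identical in part, and how reads were shared between them is uncertain. OSGIN1, at 1.80 and 2.03, lay within the range of these target genes and SQSTM1, at 0.54 and 0.68, near their median. NFE2L2, at 0.20 and 0.09, lay well below both medians. After irradiation none of the 34 passed by edgeR, in vehicle or in LBP cells, with medians of 0.01 and -0.11. An unadjusted p under 0.05 was reached by 1 of the 34 in vehicle cells, against 6.91% of all features, and by 7 in LBP cells, against 13.5%. In LBP cells 1 of the 34 was called lower with DESeq2 and 1 without irradiated LBP replicate 1. These settings called 193 and 33 features over the whole table, against 21 by edgeR with all libraries. GCLM, a subunit of the enzyme that starts glutathione synthesis, had the smallest p in vehicle cells (0.22 ± 0.10, adjusted p = 0.704), and TRIM16 in LBP cells (-0.48 ± 0.12, adjusted p = 0.2).

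**Figure D5:**
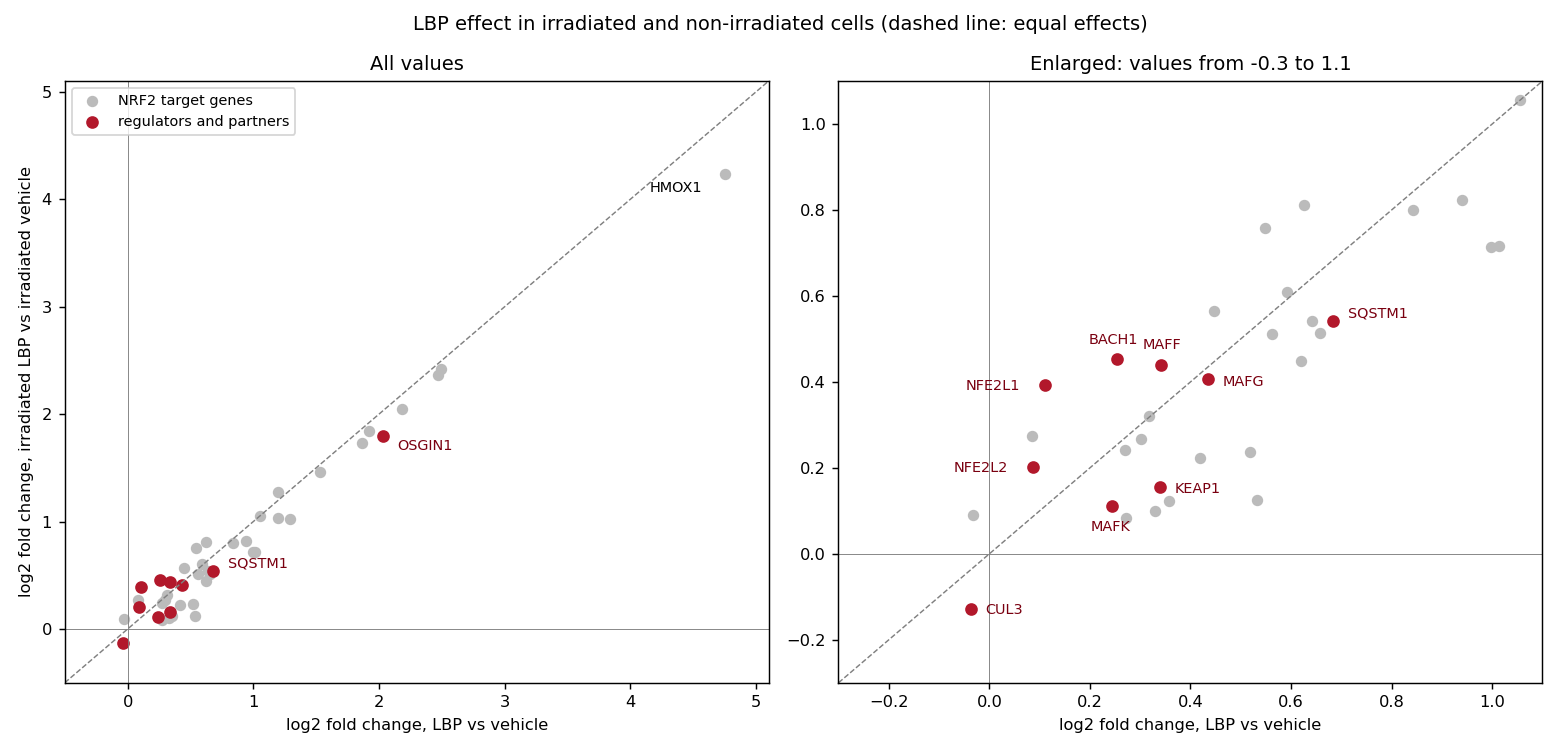
Log2 fold change with LBP in irradiated cells (vertical) against that in non-irradiated cells (horizontal) for the 10 regulators and partners (red) and the 34 NRF2 target genes (grey), with an enlarged view on the right. The 2 axes use different libraries. OSGIN1 (1.80 and 2.03) lies among the strongly raised targets, SQSTM1 at 0.54 and 0.68, and NFE2L1 above the line of equal effects at 0.39 and 0.11.

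Of 28 other genes known to act on NRF2, NRF1 or BACH1, 27 were tested. With LBP in irradiated cells 1 rose and 1 fell, where 2.79% of all features rose and 1.57% fell, so these counts were near the background. DESeq2 called 3 higher and 2 lower, where it called 1241 features over the whole table, against 645 by edgeR. In non-irradiated cells 1 fell, against 0.264% of all features. The gene that fell in both was NFE2L3, encoding NRF3, the third member of the NRF family. It had 96.0 ± 5.2 CPM in irradiated LBP and 125 ± 6.2 CPM in irradiated vehicle cells (SD, n = 3 each), a change of -0.38 ± 0.07 (adjusted p = 0.0167). In non-irradiated cells it had 84.9 ± 10 CPM with LBP and 123 ± 2.4 CPM with vehicle (SD, n = 2 each), a change of -0.53 ± 0.09 (adjusted p = 0.018). Its call was lost in 3 of 21 alternative settings in irradiated cells, among them without irradiated vehicle replicate 2 (adjusted p = 0.0639) or 3 (adjusted p = 0.0683), and in 5 of 21 in non-irradiated cells, among them without vehicle replicate 1 (adjusted p = 0.121) or 2 (adjusted p = 0.125) and without LBP replicate 1 (adjusted p = 0.158). Its value was negative in all of them. The 3 NRF genes thus had different values with LBP: NFE2L3 was lower in both states, NFE2L1 was called higher in irradiated cells, and NFE2L2 was called in neither. SESN2, a stress gene that promotes KEAP1 degradation, rose in irradiated cells to 34.7 ± 12 CPM with LBP, against 17.8 ± 1.8 CPM with vehicle (0.97 ± 0.19, adjusted p = 0.0191). This call was lost in 3 of 21 alternative settings, among them without irradiated vehicle replicate 2 (adjusted p = 0.0875) or 3 (adjusted p = 0.0734). Without irradiated LBP replicate 3 the value of SESN2 was 0.66. In this comparison the coactivator EP300 (0.28 ± 0.08, adjusted p = 0.0676) and the autophagy receptor NBR1 (0.24 ± 0.07, adjusted p = 0.0792) followed without passing. In non-irradiated cells the next genes were MAP1LC3B, encoding the autophagosome protein that p62 binds (0.21 ± 0.08, adjusted p = 0.289), FBXL17 (0.41 ± 0.17, adjusted p = 0.307) and BTRC (-0.22 ± 0.09, adjusted p = 0.327). After irradiation none of the 27 passed in either comparison, by edgeR or by DESeq2, with 2 in vehicle cells and 7 in LBP cells at an unadjusted p under 0.05 by edgeR, against 6.91% and 13.5% of all features.

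Proteasome subunit genes, the best known targets of NRF1, were counted beside NFE2L1. With LBP in irradiated cells, where NFE2L1 rose, none of the 31 rose and 2 fell, against 1.57% of all features: PSMA2 (-0.28 ± 0.07, adjusted p = 0.0445) and PSMD13 (-0.29 ± 0.07, adjusted p = 0.0478), and the median was -0.16, with 2 positive values. Each of these calls was lost in 12 of 21 alternative settings, and the number called lower was 6 with DESeq2 and 0 with limma or without irradiated vehicle replicate 1 or 2 or irradiated LBP replicate 1 or 3. Over the whole table DESeq2 called 1241 features in this comparison, against 645 by edgeR. In the next genes by p, PSMC6 had -0.30 ± 0.09 (adjusted p = 0.0905) and PSMC1 -0.24 ± 0.08 (adjusted p = 0.103). With LBP in irradiated cells 12 of the 31 had an unadjusted p under 0.05 by edgeR, against 21.7% of all features. In non-irradiated cells none of the 31 passed with LBP, and 1 had an unadjusted p under 0.05, against 13.5% of all features. There 15 values were positive, with a median of -0.0023. After irradiation of LBP cells none of the 31 passed by edgeR and 2 were called lower by DESeq2. Over the whole table DESeq2 called 193 features in that comparison, against 21 by edgeR. The median there was -0.17, with 1 positive value and 11 of the 31 at an unadjusted p under 0.05, against 13.5% of all features. Irradiated LBP libraries enter both this comparison and the one with irradiated vehicle. After irradiation of vehicle cells none passed by edgeR or DESeq2, and 0 had an unadjusted p under 0.05, against 6.91% of all features. In that comparison 13 values were positive, with a median of -0.03.

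The genes whose level followed a called member most closely over the 10 libraries were found by the root mean square difference of log2 CPM after centring each gene on its own mean. For OSGIN1 they were ALDH3A1 (0.155), AKR1C3 (0.156) and the growth factor gene EPGN (0.174), where OSGIN1 itself had a spread of 0.955. For SQSTM1 they included the serine synthesis gene PHGDH (0.08) and the glutathione peroxidase gene GPX2 (0.0874), against a spread of 0.319. For NFE2L1 they were R3HDM2 (0.0316), CELSR1 (0.059) and NUCB1 (0.0613), against a spread of 0.182. PHGDH and GPX2 had log2 fold changes of 0.50 and 0.51 with LBP in irradiated cells and 0.54 and 0.66 in non-irradiated cells. R3HDM2 had 0.39 and 0.12 in the same order of states. These genes were chosen for their likeness over the same libraries, so their values are a description.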

How the data were processed

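RNA of 10 HaCaT libraries was sequenced, and samples were assigned to groups from their labels. The submitters' processing notes name HISAT2 and GRCh38 without versions. For the counting tool, strand setting and annotation: not given in the sources used here. Of the deposited tables, that of counts holds whole-number read counts per gene, and the FPKM table, deposited by the authors, the same features scaled by length and depth. The test was that of edgeR 4.0.16 under R 4.3.3: filterByExpr with a minimum count of 10, TMM scaling, and a quasi-likelihood model with 1 mean per group over all 10 libraries (6 residual and 6.06 prior degrees of freedom), Benjamini-Hochberg over 14799 features. SE is the log2 fold change divided by the root of F. The code was tested on simulated data.

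Alternatives were DESeq2 1.42.0, limma 3.58.1 on log2(FPKM + 1) and log2(FPKM + 0.1), other scalings, no filter, a replicate block, only the groups compared, and leaving out each library. Same-numbered libraries were not paired, because the labels tie no culture or day to a repeat number. Of 13 such pairs, 2 correlated above 0.1. Deviations within a group of 2 libraries mirror each other, so these pairs are not independent and cannot decide whether libraries were paired. All 10 members were named whatever their values, with up to 4 genes of each list by smallest p and the 3 genes nearest in pattern to each called member, of which 1 is not reported here. The members and lists were chosen with earlier results of these data known. Positions come from GENCODE v29 and promoters from RefSeq on GRCh38.p14. Coordinates count from 1.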

Additional observations from a re-analysis of the deposited data

How the results depend on the processing

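The number of the 10 genes called with LBP in irradiated cells was 3 by edgeR as described, 4 with the replicate block (BACH1 in addition), 5 with DESeq2 and 5 with no filter on low counts (BACH1 and MAFG in addition), 2 to 7 when each library was left out in turn, and 6 without the 2 shallowest libraries, an alternative chosen after the data were seen. In non-irradiated cells it was 2, against 1 with limma on log2(FPKM + 1) with no filter, 1 to 3 when each library was left out in turn and 1 without the 2 shallowest libraries. A group left with 1 library was assumed to vary like the others. Under the replicate block it was 2, 0 for irradiated vehicle against vehicle and 0 for irradiated LBP against LBP; with DESeq2 the last was 1, and KEAP1 was called in addition for LBP against vehicle. Same-numbered libraries of different groups had correlations of their deviations from group means between -0.161 and 0.11. OSGIN1 was called with LBP in both states in all 21 alternatives, with values from 1.64 to 1.93 in irradiated and 1.85 to 2.19 in non-irradiated cells.

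Over all members, comparisons and alternatives, 975 values kept their direction and side of the threshold, 16 passed in addition, 8 no longer passed and 41 changed sign. None of those 41 was called in either setting, and the cause was not tested. With LBP in irradiated cells, leaving out each library in turn gave -0.23 to 0.013 for CUL3 and -0.0032 to 0.30 for MAFK. For irradiated vehicle against vehicle the values were 0.013 for NFE2L1 and 6.8e-04 for SQSTM1 with library size only, 0.059 for CUL3 with the replicate block, and 0.073 for NFE2L1 and -0.00198 for KEAP1 without the 2 shallowest libraries, while leaving out libraries in turn gave -0.080 to 0.073 for NFE2L1, -0.0022 to 0.13 for KEAP1, -0.0093 to 0.089 for BACH1, -0.093 to 0.032 for SQSTM1 and -0.083 to 0.012 for CUL3. For irradiated LBP against LBP they were -0.0025 for NFE2L2 with the replicate block and 0.046 for OSGIN1 without the 2 shallowest libraries, with -0.068 to 0.089 for NFE2L2, -0.23 to 0.046 for OSGIN1 and -0.23 to 0.0071 for CUL3 when libraries were left out in turn. For the interaction, MAFG had 0.019 with limma on log2(FPKM + 1), with or without a filter, and 0.017 on log2(FPKM + 0.1). Without the 2 shallowest libraries MAFG had 0.19, MAFK 0.25 and OSGIN1 0.033. Leaving out libraries in turn gave -0.19 to 0.054 for CUL3, -0.27 to 0.38 for MAFF, -0.12 to 0.12 for MAFG and -0.38 to 0.071 for MAFK.

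Over all features with LBP, calls in irradiated cells numbered 645 by edgeR as described. They numbered 1241 with DESeq2, 300 with limma on log2(FPKM + 1), 409 with only the groups compared, 813 with the replicate block and 713 with no filter on low counts. In non-irradiated cells the counts were 119 by edgeR as described, and 381, 71, 278, 148 and 188 in the same order. Leaving out each library in turn gave 176 to 722 in irradiated and 38 to 175 in non-irradiated cells.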
